A study of Homo sapiens with 15 samples.

Results

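The RNA content of condensate pellets formed with dsRNA was compared with that of the cytosolic extract from which the pellets came. Of the 15 libraries of the study, 6 entered this comparison, 3 from dsRNA pellets and 3 from input extract, and 16612 of the 57500 genes in the files were tested, namely those that reached 10 counts in 2 or more of the 3 replicates under all 5 conditions. The extract came from U2OS cells, an established line of human osteosarcoma cells that the labels give as wild type, although the study names its condensates after YFP-G3BP1, so that it is unclear whether the cells carried that fusion. Translation reactions were run in the extract for 2 h at body temperature with 250 nM dsRNA, the condensates were spun down and washed, and RNA was prepared with a poly(A) selection and random priming. Input extract was not pelleted, and no incubation is stated for it. Pellets of reactions with no addition (mock, 3 libraries, 2 h) were the direct control for dsRNA and are given beside the comparison with input. Some features limit the groups as a model of stressed cells: the extract holds no intact cells or nuclei, a spin collects whatever sediments, and fewer particles that hold an RNA cannot be told apart from less of it in each particle.

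Double-stranded RNA is read by cells as a sign of viral infection. It activates PKR, the kinase encoded by EIF2AK2, which phosphorylates the initiation factor eIF2α and stops most initiation of translation, and mRNAs that run off their ribosomes can then gather with G3BP1 and other RNA-binding proteins in stress granules. An mRNA made for secretion or for the cell surface is normally translated at the endoplasmic reticulum, those for ribosomal proteins and metabolic enzymes are mostly translated on free polysomes, and the few mRNAs of the mitochondrial genome stay inside mitochondria.

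Total counts lay between 23101982 and 46939993 in input and between 33577813 and 39490923 in dsRNA pellets. Replicate 1 stood apart in both groups. Input replicate 1 differed from input replicates 2 and 3 by a root mean square of 0.50 and 0.49 on the log2 CPM scale, against 0.16 between replicates 2 and 3. For dsRNA the values were 0.45 and 0.44 against 0.17. CPM are the counts of a gene in 1000000 counts, after TMM scaling except in the marker sums that follow. TMM scaling was over the 6 libraries of the comparison, and for mock pellets over all 15. Of 10 marker genes listed for osteosarcoma cells 8 were tested, and the list summed to 2652 to 3416 CPM in input and 3497 to 3838 in dsRNA pellets, most of it from VIM and COL1A1, whereas TWIST1 and COL1A2 had at most 10 counts in any library. Of 8 hepatocyte markers, APOB, TTR, ALB and FGB had no count in any of these libraries, and the list summed to 8.58 to 24.4 CPM. The 16 markers of epithelial, neural, blood and other cells summed to 54.6 to 76.7 CPM in input and 90.5 to 102 in dsRNA pellets, with RBFOX3 and CLDN4 the highest and SOX10 among those at 0. The part of other cell types in the results was not tested.

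Against input, 3507 of the 16612 genes tested (21.1%) were enriched in dsRNA pellets and 3261 (19.6%) were depleted, where these words stand for an adjusted p under 0.05 (edgeR, quasi-likelihood F test, Benjamini-Hochberg) and a fold change over or under 1. The 3 pellets all lay above the 3 inputs for 3497 of the enriched genes and all below them for 3253 of the depleted ones. Over all genes the median log2 fold change was -0.00, so values are relative to the rest of the RNA in a library, and the amount of RNA pelleted was not measured. When same-numbered libraries were paired with a replicate block, 5147 genes (31%) were enriched and 4839 (29.1%) depleted. Leaving replicate 1 out of both groups gave 5575 and 5512. The depleted count fell to 1960 without dsRNA replicate 2 and to 1972 without dsRNA replicate 3. With an offset that removes a GC trend from each library, 2718 genes (16.4%) were enriched and 2880 (17.3%) depleted. The 10 largest rises at a mean level of 3 or more on the log2 CPM scale, with groups apart, were 7 mitochondrial mRNAs, COL16A1, SLTM and the pseudogene ANKRD20A8P (log2 1.65). The 10 largest falls were the small RNA BCYRN1, MT-TN, YBX1, LSM3, CYCS, MRPL17, POMP, LDHA, the cell cycle phosphatase CDKN3 (-1.46) and UMAD1 (-1.83). Functional classes are described below by how many of their genes were called, for which 21.1% and 19.6% are the background, and by their median. In the classes given below with 0 genes on 1 side by edgeR, DESeq2 also called 0 there and 0 had an unadjusted edgeR p under 0.05, except 1 elongation factor by unadjusted p and, of the nuclear-retained RNAs, 2 by unadjusted p and 1 by DESeq2.

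Enriched and depleted mRNAs had coding sequences of unlike length and base composition. Over 13523 protein-coding genes, the median coding length was 2074 nt among enriched, 1479 nt among not called and 934 nt among depleted genes. The median GC content of the coding sequence was 60.5%, 52.3% and 46.9%, and at the last codon position it was 73.4%, 58.6% and 47.6%. The 3′ untranslated region showed no such order, with medians of 906, 1073 and 822 nt. Starts of 5 coding sequences are given as chosen examples, 2 from enriched genes that lead their class and 3 from depleted genes. Other enriched leaders were poor in GC over the whole coding sequence, as GOLGA4 with 38.4%. Each start is the first 60 coding bases with every G and C in capitals (GENCODE 29 on GRCh38, transcript with the longest coding sequence).
COL16A1, collagen chain, enriched, chr1:31702134-31702193, minus strand, exon 2: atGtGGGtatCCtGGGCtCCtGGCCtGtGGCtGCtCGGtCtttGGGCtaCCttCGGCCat
KIF7, kinesin, enriched, chr15:89652871-89652930, minus strand, exon 2: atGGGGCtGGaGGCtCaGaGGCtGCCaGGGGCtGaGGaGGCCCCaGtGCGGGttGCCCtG
PSMA6, proteasome subunit, depleted, chr14:35292477-35292536, plus strand, exon 1: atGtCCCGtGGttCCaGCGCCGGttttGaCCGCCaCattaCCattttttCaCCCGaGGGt
NDUFS5, complex I subunit, depleted, chr1:39028725-39028784, plus strand, exon 2: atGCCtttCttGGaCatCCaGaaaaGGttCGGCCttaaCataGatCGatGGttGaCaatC
POMP, proteasome assembly factor, depleted, chr13:28659185-28662466, plus strand, exons 1 and 2: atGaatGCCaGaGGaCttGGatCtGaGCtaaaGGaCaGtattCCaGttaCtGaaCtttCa
The GC content of these starts was 61.7% and 71.7% in the enriched genes and 55%, 43.3% and 41.7% in the depleted ones, and the median over all 13523 genes was 60%. The whole coding sequences had lengths of 4812 and 4029 nt against 756, 318 and 423 nt.

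Across those genes, Spearman's correlation with the log2 fold change was 0.43 for coding length and 0.50 for coding GC content, as a description over genes that share 6 libraries. Within pairs 1, 2 and 3 it was 0.35, 0.46 and 0.45 for length and 0.61, 0.40 and 0.39 for GC. Each held when the other was held fixed, with partial correlations of 0.54 for length and 0.59 for GC. When the genes were put in 5 equal groups by coding length, in the shortest (75 to 785 nt) 7.58% of genes were enriched and 44.5% depleted, while in the longest (2595 to 26769 nt) 41.6% were enriched and 3.92% depleted. In 5 groups by GC the shares were 7.25% and 36.7% in the lowest (31.1 to 44.2%) and 50.5% and 3.81% in the highest (61.4 to 80.2%). Genes both long and rich in GC had a median of 0.89, those both short and poor in GC one of -0.77. The GC relation moved with the libraries: the same inputs differed among themselves along GC, with correlations of -0.37 for input 1 minus input 2 and -0.43 for input 1 minus input 3, and with the GC offset the correlation with GC fell to 0.11 while that with length was 0.50. The part of GC trends of library preparation in the result was not tested.

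**Figure D1:**
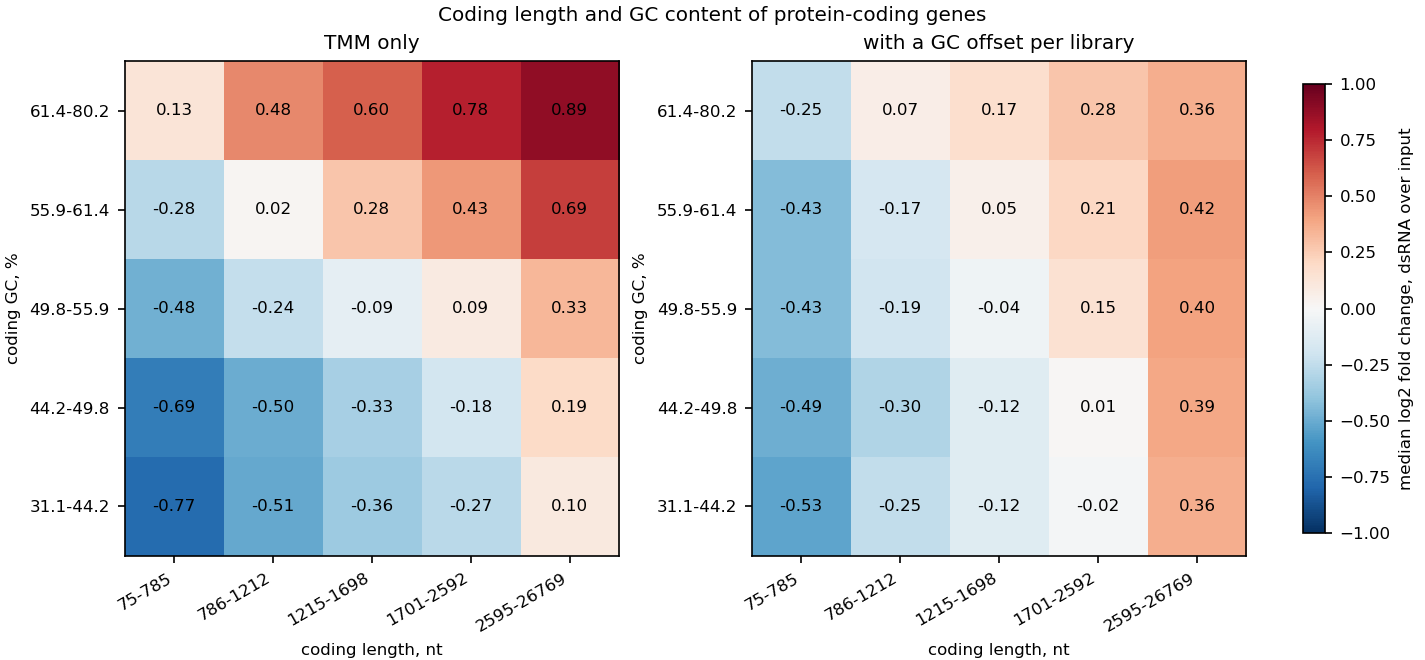
Median log2 fold change of dsRNA pellets over input in 25 cells of coding length (x axis, nt) and coding GC content (y axis, %), each in 5 equal groups of 13523 protein-coding genes, without (left) and with (right) a GC offset per library. Medians ran from -0.77 to 0.89 on the left, rising along both axes, and from -0.53 to 0.42 on the right, where they rose mainly along length.

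The mRNAs of the mitochondrial genome were the most enriched class. They encode core subunits of the respiratory chain and are neither long nor rich in GC, with a median of 784 nt and 44.4% GC. Of 13 tested, 11 were enriched and 0 depleted, with a median log2 fold change of 1.66, and within pairs the medians were 1.73, 1.48 and 1.51. They held 0.440%, 0.465% and 0.363% of all counts in inputs 1 to 3 and 1.42%, 1.26% and 0.945% in dsRNA pellets 1 to 3. Pellets and inputs did not overlap.

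MT-ND2 (ENSG00000198763, MT:4470-5511), a subunit of complex I, had 231, 192 and 156 CPM in inputs and 956, 650 and 514 CPM in dsRNA pellets. Every pellet stood above every input, and pellet 1 was the highest. Its log2 fold change of 1.87 ± 0.25 (SE, adjusted p = 0.0025, edgeR quasi-likelihood, Benjamini-Hochberg adjusted) was the largest rise of all genes whose mean level was 3 or more on the log2 CPM scale and whose groups lay apart. MT-CO3, a subunit of cytochrome oxidase, went from 355 ± 54.2 CPM (SD, n = 3) to 1219 ± 208 CPM, a 3.43-fold rise, again without overlap. MT-ATP6 (3.32-fold) and MT-CYB (3.17-fold), of ATP synthase and complex III, were enriched as well, as was MT-CO1 of complex IV, at a log2 fold change of 1.32.

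The exceptions sat side by side on the mitochondrial genome. MT-ND5, another complex I subunit, had 309, 280 and 235 CPM in inputs and 282, 319 and 239 CPM in pellets, a log2 fold change of 0.03 that was not called, with overlapping groups. MT-ND6, its neighbour and the lone mRNA of the opposite strand, had 209, 137 and 105 CPM in inputs and 118, 125 and 86.1 CPM in pellets (-0.46, adjusted p = 0.19 by the same edgeR test, called lower with the replicate block and with no filter on low counts). Mitochondrial transfer RNAs, seen through the poly(A) selection only in part, went both ways: of 11 tested, 2 were enriched, 3 depleted (3 and 5 with the block) and 6 not called. MT-TL1, a leucine transfer RNA, had 18.4, 19.8 and 14.2 CPM in inputs and 33, 43 and 31 CPM in pellets. MT-TN (MT:5657-5729, minus strand), the asparagine transfer RNA, had 15.7, 17.9 and 18.6 CPM in inputs and 2.88, 2.23 and 3.00 CPM in pellets, a 6.45-fold fall (log2 -2.69 ± 0.17, adjusted p = 0.0024, edgeR as above). The strand setting of the counting was not stated and nuclear copies of the mitochondrial genome exist, so reads of these neighbours and copies cannot be told apart.

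**Figure D2:**
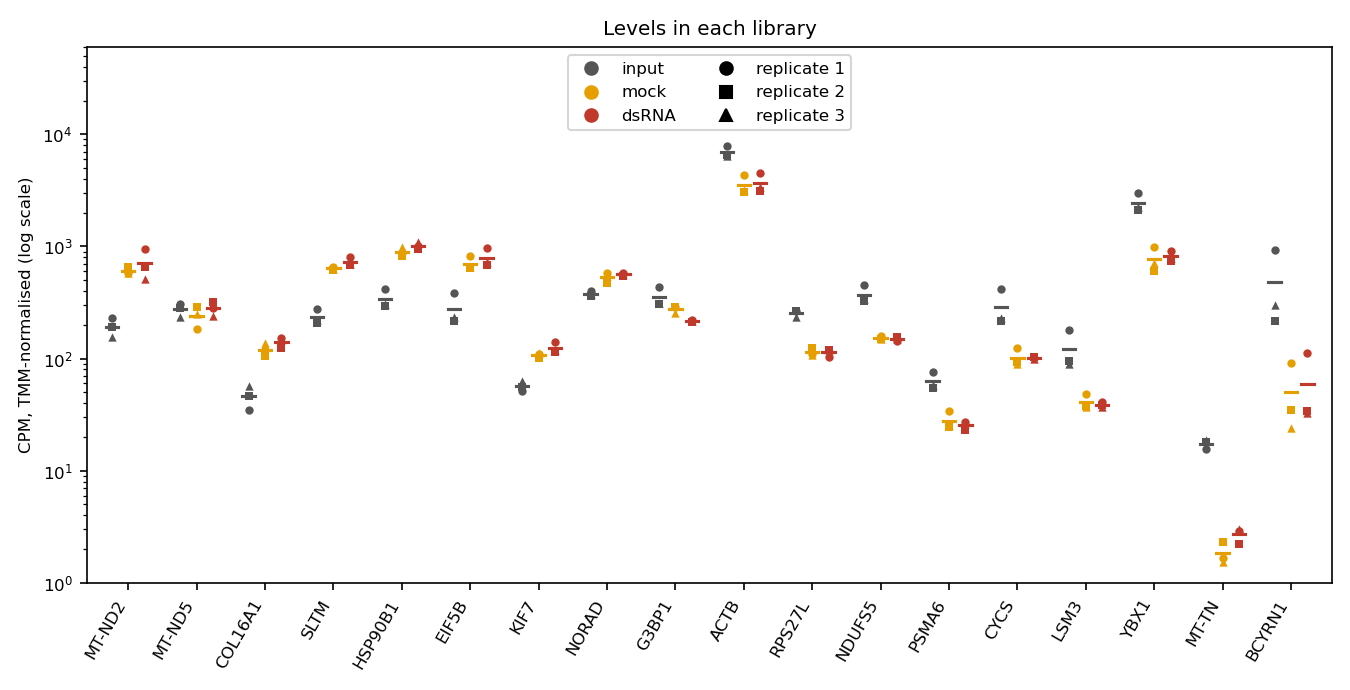
Level of 18 genes in each library (y axis, CPM on a log scale) in input (grey), mock pellets (orange) and dsRNA pellets (red); symbols give the replicate and bars the mean. MT-ND2 rose from 193 CPM on average in input to 707 in dsRNA pellets and YBX1 fell from 2460 to 814. In both cases mock pellets lay beside dsRNA pellets, whereas G3BP1 lay lower in dsRNA than in mock pellets. Mock levels were scaled over all 15 libraries, the others over 6.

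mRNAs of the extracellular matrix formed the next class. Collagens are secreted as long chains that build fibrils and basement membranes, and laminins, fibrillins and lysyl oxidases make or cross-link the same matrix. Of 94 genes listed 73 were tested, of which 49 were enriched, 1 depleted and 23 not called, with a median log2 fold change of 0.93 (1.05, 0.77 and 0.84 within pairs). Their share of counts was 0.474%, 0.696% and 0.734% in inputs and 1.08%, 1.21% and 1.34% in pellets, without overlap. COL16A1 (ENSG00000084636, chr1:31652247-31704319), a collagen found beside fibrils, had 34.8, 46.5 and 56.7 CPM in inputs and 154, 125 and 146 CPM in pellets. The lowest pellet stood above the highest input, with a log2 fold change of 1.62 ± 0.19 (SE, adjusted p = 0.0024, edgeR quasi-likelihood, Benjamini-Hochberg adjusted). COL1A1, the main chain of bone collagen, had 522, 605 and 649 CPM in inputs and 1855, 1246 and 1409 CPM in pellets, a 2.54-fold rise. P4HA1, which hydroxylates collagen prolines inside the cell and is no matrix protein, was the 1 depleted member (log2 -0.41), a call lost with the GC offset (-0.16) and without any of dsRNA replicate 2 or 3 or input replicate 2 or 3. With the replicate block 2 genes were depleted, with the GC offset 26 of the 73 were enriched, and 31 and 27 were without dsRNA replicate 2 and dsRNA replicate 3.

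Receptors and adhesion molecules of the plasma membrane followed. Among 53 receptor tyrosine kinases and related receptors (plexins, NOTCH and LDL-receptor relatives), 33 were enriched and 1 depleted, with a median of 0.77. ERBB2, the HER2 growth factor receptor, had 26.9, 31 and 32.2 CPM in inputs and 74.5, 59.4 and 66.8 CPM in pellets. These groups were apart, at a log2 fold change of 1.15 ± 0.13 (SE, adjusted p = 0.0024, edgeR as above). RYK, an atypical Wnt receptor, was the depleted member (log2 -0.46), lost with the GC offset (-0.23) and without dsRNA replicate 2 or input replicate 3. Of 77 integrins, cadherins and protocadherins, 33 were enriched, 4 depleted and 40 not called, with a median of 0.67. PCDHB14, a neuronal-type protocadherin whose reads near relatives may share, went from 4.45, 8.09 and 8.13 CPM to 11.1, 17.7 and 21.7 CPM. ITGB1BP1, a cytosolic protein that binds an integrin tail, led the 4 depleted members (-1.08, lost without dsRNA replicate 2 or dsRNA replicate 3). The enriched count of this class was 50 with the replicate block, 21 without dsRNA replicate 2 and 15 without dsRNA replicate 3, and the depleted count was 1 without either.

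Smaller membrane proteins were divided. Of 201 solute carriers, which move ions, metals and nutrients across membranes, 53 were enriched, 14 depleted and 134 not called, with a median of 0.23. SLC39A13, a zinc importer of the secretory route, had 15.5, 30 and 26.7 CPM in inputs and 60.9, 62.1 and 67.1 CPM in pellets, and SLC30A9 fell (log2 -0.84). Of 194 genes named TMEM, 39 were enriched and 38 depleted, close to the background shares, with a median of -0.07. TMEM132A, a membrane protein, had 62.6, 98.4 and 109 CPM in inputs and 219, 221 and 266 CPM in pellets. TMEM14A, with 297 nt of coding sequence, went from 71, 42.2 and 41.2 CPM to 22.9, 19.9 and 20 CPM. Enriched solute carriers numbered 34 and 30 and depleted ones 7 and 8 without dsRNA replicates 2 and 3, and depleted ones also 8 and 9 without input replicates 2 and 3. With the replicate block 26 solute carriers were depleted and 61 TMEM genes enriched, and without dsRNA replicate 3 there were 25 enriched TMEM genes.

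Cytosolic proteins of great length were enriched too. Of 39 giant linkers of the cytoskeleton and membranes, among them spectrins, plakins and golgins with a median coding length of 9291 nt, 27 were enriched, 0 depleted and 12 not called, with a median of 0.74. GOLGA4, a golgin that tethers vesicles at the trans-Golgi, had 251, 170 and 169 CPM in inputs and 593, 476 and 536 CPM in pellets, a log2 fold change of 1.44 ± 0.19 (SE, adjusted p = 0.0024, edgeR quasi-likelihood, Benjamini-Hochberg adjusted). Its coding sequence is poor in GC (38.4%) and 6729 nt long. Of 75 kinesins, dyneins and myosins, 31 were enriched and 4 depleted, with a median of 0.48. KIF7, a kinesin of the primary cilium, had 51.3, 56 and 63.1 CPM in inputs and 140, 115 and 120 CPM in pellets, and KIF1BP, a short kinesin-binding protein and no motor itself, fell (log2 -0.74). Motors and linkers together held 1.29%, 1.19% and 1.21% of counts in inputs and 2.13%, 1.93% and 1.92% in pellets. Enriched motors numbered 19 without dsRNA replicate 2, dsRNA replicate 3 or input replicate 3 and 20 without input replicate 2. Depleted motors numbered 2 with the GC offset and without dsRNA replicate 1, 2 or 3 or input replicate 3.

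Chromatin proteins and large ubiquitin ligases made up the rest of the long classes. Of 98 chromatin modifiers and remodellers, 47 were enriched, 6 depleted and 45 not called, with a median of 0.46. HDAC10, a deacetylase with a cytosolic role in polyamine metabolism, had 5.28, 6.76 and 7.57 CPM in inputs and 17, 14.8 and 17 CPM in pellets. HDAC2, a deacetylase of nuclear repressor complexes, fell from 206, 136 and 142 CPM to 93.4, 81.7 and 84.3 CPM. Of 32 large ubiquitin ligases, 11 were enriched and 3 depleted with a median of 0.08, led by CUL7 (1.03) and, among those that fell, CUL3 (-0.84), both cullin scaffolds. Enriched ligases numbered 5 and depleted ones 1 without dsRNA replicate 3, 4 ligases were enriched without input replicate 2 or 3, and 6 were depleted with the block. The 6 depleted chromatin genes numbered 1 without dsRNA replicate 2 or 3, 3 without input replicate 3 and 12 with the block.

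Ribosomal protein mRNAs were depleted. Of 54 genes for proteins of the large cytosolic subunit 41 were depleted and 0 enriched, with a median of -0.69, and of 34 for the small subunit 28 were depleted and 0 enriched, with a median of -0.65. Together they held 8.27%, 10.4% and 10.3% of counts in inputs and 4.77%, 7.21% and 7.21% in pellets. Each pellet lay below each input, and replicate 1 was the lowest of both groups. RPS27L, a small-subunit protein variant whose near relatives may share its reads, had 265, 267 and 237 CPM in inputs and 104, 120 and 119 CPM in pellets, a 2.24-fold fall (adjusted p = 0.0024, edgeR quasi-likelihood, Benjamini-Hochberg adjusted). RPL26L1, the variant that fell furthest in the large subunit, had a log2 fold change of -1.24. Without input replicate 3, 27 large-subunit and 15 small-subunit genes were depleted. Mitochondrial ribosomal proteins, which are made in the cytosol and imported, were on the same side: 59 of 82 were depleted and 1 enriched, with a median of -0.78. MRPL17 went from 131, 90.5 and 93.9 CPM to 25.7, 36.3 and 45.4 CPM, and MRPS26 was the enriched one (log2 0.71), a call lost with the GC offset (0.15).

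Translation factors were mostly depleted. Of 49 initiation factors, 27 were depleted, 4 enriched and 18 not called, with a median of -0.61, and of 23 elongation and termination factors 14 were depleted and 0 enriched, with a median of -0.46. EIF2S1, which encodes the eIF2α that PKR phosphorylates, had 343, 178 and 184 CPM in inputs and 115, 102 and 102 CPM in pellets. MCTS1, which recycles ribosomes for re-initiation, fell furthest (log2 -1.15), and DPH3, which helps modify elongation factor eEF2, led the elongation list (-1.05). Among those that rose, EIF5B, the GTPase that joins the subunits, had 386, 215 and 233 CPM in inputs and 976, 677 and 729 CPM in pellets. Its groups were well apart, with a log2 fold change of 1.51 ± 0.25 (SE, adjusted p = 0.0038, edgeR quasi-likelihood, Benjamini-Hochberg adjusted). EIF3A, the largest subunit of eIF3, rose 2.05-fold and EIF4G1, the scaffold of the cap-binding complex, 1.86-fold. Without dsRNA replicate 2 or 3 the depleted elongation factors numbered 8, and without input replicate 2 they numbered 9. Of 22 cytosolic aminoacyl-tRNA synthetases 13 were depleted and 0 enriched, with a median of -0.46, led by FARSB of the phenylalanine enzyme (-1.26), and 1 was enriched with the replicate block or without dsRNA replicate 1. The block also gave 1 enriched elongation factor. Of 62 ribosome biogenesis factors 10 were enriched and 15 depleted (24 with the replicate block), with a median of -0.19. NCL, nucleolin, had 1283, 821 and 854 CPM in inputs and 3233, 2350 and 2403 CPM in pellets, and NOP10, a short protein of the box H/ACA particle, fell (-1.02). Without input replicate 2 or 3, 6 biogenesis factors were enriched.

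Nuclear-encoded subunits of the respiratory chain went the opposite way to the mitochondrially encoded ones. Of 38 complex I subunits 28 were depleted and 0 enriched, with a median of -0.78. Of 46 genes for complexes II to V and cytochrome c, 42 were depleted and 1 enriched, with a median of -0.86, the lowest of the classes plotted. The enriched one, COX7A1 (log2 0.84), lost its call with the GC offset and when any library but input replicate 3 was left out. These genes encode partners of the 13 mitochondrial mRNAs in the same complexes, and their coding sequences had medians of 478 and 372 nt. Their share of counts was 1.30%, 1.10% and 1.09% in inputs and 0.707%, 0.699% and 0.686% in pellets. NDUFS5 (ENSG00000168653, chr1:39026318-39034636), a complex I subunit, had 454, 324 and 338 CPM in inputs and 143, 157 and 149 CPM in pellets. The pellets lay close together and far below the inputs, at a log2 fold change of -1.31 ± 0.16 (SE, adjusted p = 0.0024, edgeR as above). CYCS, cytochrome c, went from 417, 216 and 228 CPM to 102, 103 and 98.7 CPM, a 2.83-fold fall.

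Enzymes of central metabolism were mostly on the same side. Of 22 tricarboxylic acid cycle genes 15 were depleted and 0 enriched (1 with the replicate block), with a median of -0.69, and FH, fumarase, fell from 106, 94.4 and 88.1 CPM to 44.8, 45.3 and 44.3 CPM. Of 18 glycolytic genes 10 were depleted and 2 enriched, with a median of -0.49. LDHA, lactate dehydrogenase, had 1258, 685 and 676 CPM in inputs and 406, 266 and 289 CPM in pellets, with replicate 1 highest in both groups. HK2, the hexokinase on mitochondria, rose 1.56-fold, a call lost without input replicate 2 or 3. The enriched count was then 0, it was 1 with the GC offset and without dsRNA replicate 2 or 3, and the depleted count without those was 4. Of 30 mitochondrial import genes 14 were depleted and 2 enriched, led by TOMM5 (-1.24), the depleted count being 9 without dsRNA replicate 2 or 3 and the enriched one 1 with the GC offset and without input replicate 2 and 0 without input replicate 3. The 43 mitochondrial carriers of the SLC25 family divided into 6 enriched and 13 depleted (5 and 7 depleted without dsRNA replicates 2 and 3, 3 enriched with the GC offset), SLC25A29 rising (1.15) and SLC25A33 falling (-1.11).

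The proteasome and the CCT chaperonin with prefoldin were depleted as complexes, whereas other chaperone classes held enriched members, HSP90AA1 and HSP90B1 among them. Of 49 proteasome genes 32 were depleted and 0 enriched, with a median of -0.73, and of 14 genes of the CCT chaperonin and prefoldin, which fold actin and tubulin, 14 were depleted, with the same median of -0.73. PSMA6, an α subunit of the proteasome core, had 75.8, 54.2 and 57.6 CPM in inputs and 27.4, 23.3 and 25.9 CPM in pellets, a log2 fold change of -1.29 ± 0.16 (SE, adjusted p = 0.0024, edgeR quasi-likelihood, Benjamini-Hochberg adjusted). VBP1, a prefoldin subunit, fell by 1.17 on the log2 scale. POMP, which helps assemble that core, went from 188, 122 and 113 CPM to 57.9, 47.5 and 49.6 CPM. Without dsRNA replicate 2 or 3, 18 proteasome genes were depleted, and 9 and 8 of the chaperonin and prefoldin genes.

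Of 23 heat shock proteins 3 were enriched and 7 depleted, with a median of -0.35. HSP90AA1, the stress-inducible cytosolic HSP90, had 1276, 758 and 749 CPM in inputs and 3153, 2127 and 2304 CPM in pellets, and HSPB11 fell (-1.05). Of 38 chaperones and translocon genes of the endoplasmic reticulum 2 were enriched and 16 depleted, with a median of -0.27. HSP90B1 (ENSG00000166598, chr12:103930107-103953645), the HSP90 of that compartment, had 413, 295 and 304 CPM in inputs and 1007, 945 and 1088 CPM in pellets, a log2 fold change of 1.59 ± 0.17 (SE, adjusted p = 0.0024, edgeR as above). DAD1, a small subunit of the oligosaccharyltransferase, fell (-1.10). Of 40 DNAJ co-chaperones 3 were enriched and 11 depleted, with DNAJC2 rising (1.24) and DNAJA1 falling from 622, 400 and 415 CPM to 265, 223 and 230 CPM. Of 11 genes of the signal recognition and tail-anchor pathways 7 were depleted, led by WRB (-1.21), and GET4 (0.52) was enriched (2 genes with the block), but not with the GC offset (0.02) or without dsRNA replicate 1 or 3 or input replicate 2 or 3. The depleted heat shock proteins numbered 14 with the replicate block and 11 without dsRNA replicate 1, the depleted chaperones of the reticulum 10 without dsRNA replicate 2 and the enriched ones 6 with the block and 4 without input replicate 1. The depleted DNAJ genes numbered 6 without dsRNA replicate 2 or 3 and 7 without input replicate 3, where 1 was enriched.

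Small actin-binding proteins, actins and tubulins, and the coat, RAB and vacuolar pump classes also had medians below input. Of 32 small actin-binding proteins 26 were depleted and 0 enriched, with a median of -0.78, and CFL2, a cofilin that severs filaments, went from 93.2, 51.5 and 53 CPM to 32.3, 27.1 and 26 CPM. Of 21 actins and tubulins 10 were depleted and 0 enriched, with a median of -0.46. ACTB, β-actin, whose coding sequence is rich in GC (60.6%) but short (1125 nt), had 7846, 6552 and 6341 CPM in inputs and 4545, 3128 and 3375 CPM in pellets. Without dsRNA replicate 2 or 3, 17 actin-binding genes and 3 actins and tubulins were depleted, and without input replicate 3, 5 of the latter. Of 46 COPI, COPII and clathrin coat genes 21 were depleted and 3 enriched (median -0.40), of 58 RAB GTPases 26 and 6 (median -0.43) and of 20 subunits of the vacuolar proton pump 9 and 3 (median -0.32). The adaptor AP-3 showed the divide within 1 complex, its large subunit AP3D1 rising (0.99) and its small subunit AP3S1 falling (-1.19). RAB2A, of traffic between reticulum and Golgi, fell (-0.98), RAB40C rose (1.33), and ATP6V1D, a rotor subunit of the pump, fell from 72.5, 56 and 52.9 CPM to 23.2, 23.2 and 23.7 CPM. The depleted coat genes numbered 13 without dsRNA replicate 2 or 3, and the RAB genes 15 without dsRNA replicate 2, 14 without dsRNA replicate 3 and 16 with the GC offset. Enriched coat genes numbered 1 without dsRNA replicate 3, and the enriched pump genes 1 without dsRNA replicate 2 or 3 or input replicate 3.

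mRNAs for the proteins of stress granules themselves were called in shares near those of all genes, with 19.6% enriched and 27.5% depleted against 21.1% and 19.6%. Of 51 genes for core stress granule proteins 10 were enriched, 14 depleted and 27 not called, with a median of -0.13. G3BP1, the scaffold protein, had 435, 306 and 316 CPM in inputs and 220, 213 and 218 CPM in pellets, a log2 fold change of -0.70 ± 0.16 (SE, adjusted p = 0.011, edgeR quasi-likelihood, Benjamini-Hochberg adjusted). G3BP2 (-0.73) and CAPRIN1 (-0.74), its relative and its partner, fell as well, CAPRIN1 with a call lost with the GC offset (-0.51) and without dsRNA replicate 2 or 3. YBX1 (ENSG00000065978, chr1:42682427-42702349), the abundant mRNA-packaging protein, had 2993, 2125 and 2262 CPM in inputs and 909, 739 and 793 CPM in pellets. The pellets lay far below the inputs, at -1.60 ± 0.17 (SE, adjusted p = 0.0024, edgeR as above), and its relative YBX3 fell by 1.20 on the log2 scale. Those that rose included PRRC2C (log2 0.94) and UPF1 (0.90, lost with the GC offset at 0.46), besides EIF3A and EIF4G1. Without dsRNA replicate 3, 9 of the stress granule genes were depleted. Of 35 P-body and decay genes 9 were enriched and 6 depleted (10 with the block), with a median of 0.02, UPF2 of nonsense-mediated decay rising (1.23) and the deadenylase CNOT7 falling (-1.11).

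Genes for dsRNA sensors were enriched in 4% and depleted in 28% of cases, against 21.1% and 19.6% of all genes. Of 25 genes for dsRNA sensors and binding proteins, 1 was enriched, 7 depleted and 17 not called, with a median of -0.26, and with the replicate block 4 were enriched and 12 depleted (2 enriched with the GC offset). EIF2AK2, the kinase PKR, had 176, 128 and 118 CPM in inputs and 99.9, 88.1 and 90.1 CPM in pellets (log2 -0.60, adjusted p = 0.023, edgeR as above), a call lost with the GC offset (-0.32) and without dsRNA replicate 2 or 3. PRKRA, which activates PKR, had 84.3, 73.8 and 70.2 CPM in inputs and 36.6, 35.3 and 38.2 CPM in pellets (-1.05, adjusted p = 0.0024, edgeR as above). MAVS, the adaptor of RIG-I signalling on mitochondria, was the enriched member at 0.37, but lost its call whichever of the 6 libraries was left out, and 2 other members were enriched without dsRNA replicate 1. Without dsRNA replicate 2 or 3, 4 of the sensor genes were depleted.

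Of 32 genes of the integrated stress response, the pathway that dsRNA sets off through eIF2α, 7 were enriched, 9 depleted and 16 not called, with a median of -0.13. PPP1R15A, which brings a phosphatase back to eIF2α, had 21.6, 40.4 and 34.8 CPM in inputs and 53.6, 69.2 and 64.8 CPM in pellets, a 1.93-fold rise. DDIT3, the transcription factor CHOP, had 6.11, 9.89 and 9.49 CPM against 13.1, 17 and 15.3 CPM (0.83, lost without dsRNA replicate 2). ATF4, the central transcription factor of the response, had 420, 694 and 696 CPM in inputs and 375, 456 and 476 CPM in pellets, with overlapping groups and a log2 fold change of -0.47 that was called only in some fits (-0.44 with the replicate block and -0.69 with the GC offset). Without dsRNA replicate 2 or 3, 2 genes were enriched and 4 and 5 depleted.

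Genes of nuclear processes were mixed. Of 91 splicing factors and hnRNP proteins 15 were enriched and 36 depleted, with a median of -0.38. LSM3, a small ring protein of the U6 particle, had 179, 94.2 and 90.1 CPM in inputs and 40.9, 38.4 and 37 CPM in pellets, a 3.12-fold fall, and RBM25, a long splicing regulator, went from 313, 165 and 170 CPM to 616, 452 and 478 CPM. SLTM, a SAFB-like nuclear protein, had the largest rise of a nuclear protein-coding gene by the same rule as MT-ND2, from 275, 206 and 219 CPM to 801, 676 and 699 CPM. Of 50 DEAD/DEAH-box helicases 13 were enriched and 9 depleted (median 0.04), DHX34 of mRNA surveillance rising (1.06) and DDX20 of the SMN complex falling (-0.89). Of 28 nuclear pore genes 5 were enriched and 6 depleted (13 with the block), with the basket protein TPR rising (1.02) and NUP88 falling (-1.07). Of 50 cell cycle genes 9 were enriched and 17 depleted, with the centromere kinesin CENPE rising (1.03) and the checkpoint protein MAD2L1 falling (-1.09). Of 30 histone genes 2 were enriched and 9 depleted (16 with the block), with H3F3A falling (-1.09) and H2AFX, rich in GC, rising by 0.68, which became 0.00 with the GC offset.

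For these nuclear classes, as for all genes, the calls moved when single libraries were left out. Over all genes enriched calls went from 3507 to 2553 and 2360 without dsRNA replicates 2 and 3, and depleted ones from 3261 to 1960 and 1972. Depleted splicing genes numbered 21 and 20 without dsRNA replicates 2 and 3, and enriched ones 7 without dsRNA replicate 2 or 3 or input replicate 2 or 3. Depleted helicases numbered 2 without dsRNA replicate 2 or 3 and 5 with the GC offset, and enriched ones 7 without input replicate 3. Depleted cell cycle genes numbered 9 and 8 without dsRNA replicates 2 and 3, and enriched pore genes 3 without any of dsRNA replicates 2 and 3 or input replicates 2 and 3. Of 426 zinc finger genes of the ZNF series, mostly transcription factors, 70 were enriched and 87 depleted, near or below the background, with a median of -0.14. The depleted count was 143 with the replicate block, 44 with the GC offset and 40, 32, 39 and 44 without dsRNA replicates 2 and 3 and input replicates 2 and 3, and the enriched count was 45 without input replicate 3. ZNF517, rich in GC, rose (1.15) and ZNF417 fell (-0.91). Of 37 immediate early genes, whose mRNAs are short-lived, 15 were enriched and 5 depleted, with a median of 0.14, NR4A1 rising (1.15) and KLF10 falling (-0.72). The enriched ones numbered 8 with the GC offset and 9 without dsRNA replicate 2 or 3, and the depleted ones 9 with the block and between 1 and 8 without single libraries, 8 being without input replicate 1, 3 without input replicate 2 and 1 without dsRNA replicate 2, dsRNA replicate 3 or input replicate 3.

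Long noncoding RNAs were called in both directions. Of 364 genes named as antisense 44 were enriched (12.1%) and 36 depleted (9.89%), with a median of -0.07. Of 267 genes named LINC 30 were enriched (11.2%) and 41 depleted (15.4%), with a median of -0.21. These shares lay below the 21.1% and 19.6% of all genes. The lincRNA gene type had a median level of 1.05 on the log2 CPM scale, against 4.96 for protein-coding genes. The part of low levels in the shares was not tested. Of the LINC genes, LINC01711 rose (1.31) and LINC00221 fell (-1.22). These counts moved with the fit: with the block 70 and 82 antisense and 55 and 77 LINC genes were called, with the GC offset 27 LINC genes were depleted, without dsRNA replicates 2 and 3 there were 29 and 23 enriched and 21 and 16 depleted antisense genes and 14 and 13 enriched and 23 and 18 depleted LINC genes, and without input replicates 2 and 3 there were 21 and 18 depleted antisense genes, 24 enriched antisense genes (input replicate 3), 16 and 13 enriched and 18 and 23 depleted LINC genes. NORAD, a long cytoplasmic RNA that binds Pumilio proteins, had 399, 359 and 379 CPM in inputs and 581, 544 and 573 CPM in pellets, a log2 fold change of 0.58 ± 0.12 (SE, adjusted p = 0.0067, edgeR quasi-likelihood, Benjamini-Hochberg adjusted). It was the enriched one of 7 cytoplasmic noncoding RNAs, of which 3 were depleted (1 without dsRNA replicate 2), H19 (-0.73, lost without that library) and DANCR (-0.63, lost without dsRNA replicate 2 or 3 or input replicate 1) among them, and CYTOR with 56.7, 55.3 and 64.3 CPM in inputs and 31.4, 36.1 and 34.7 CPM in pellets. Of 8 nuclear-retained RNAs edgeR called 0 enriched and 2 depleted, and with the replicate block, as without dsRNA replicate 1, it called 2 enriched (3 with the GC offset, 1 without dsRNA replicate 3). JPX, an RNA of the X-inactivation centre, led the depleted ones (-0.78). NEAT1, the scaffold of paraspeckles, had 548, 825 and 862 CPM in inputs and 740, 1423 and 1295 CPM in pellets, with overlapping groups (0.63, adjusted p = 0.097, edgeR as above). MALAT1, of nuclear speckles, had 233, 214 and 219 CPM against 230, 319 and 275 CPM (0.31, adjusted p = 0.13, edgeR as above). Both were called higher without dsRNA replicate 1, at 0.87 and 0.42, and with the GC offset MALAT1 was at 0.56 and called.

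Small and host RNAs were few. BCYRN1 (ENSG00000236824, chr2:47335315-47335514), a small RNA of Alu origin that represses translation in neurons, had the largest fall by the same rule as MT-ND2, with 930, 217 and 301 CPM in inputs and 112, 34 and 32.6 CPM in pellets. The groups did not overlap, replicate 1 was several times the others in both, and the log2 fold change of -3.02 ± 0.68 (SE, adjusted p = 0.011, edgeR as above) was -2.14 without input replicate 1 and -3.86 without dsRNA replicate 1. RN7SL2, an RNA of the signal recognition particle with near-identical copies, rose by 1.10, a call lost with the GC offset (0.54) and without dsRNA replicate 1 or dsRNA replicate 2. Of 24 small nucleolar RNA host genes 2 were enriched and 2 depleted (5 and 7 with the block), SNHG14 rising (0.64) and SNHG16 falling (-0.56), but the depleted count was 1 with the GC offset and without dsRNA replicate 2 or 3 or input replicate 2 or 3, and the enriched one 1 without dsRNA replicate 2. Of 11 small nucleolar and Cajal body RNAs 1 was enriched and 0 depleted, and the 1 call (2 with the block) was lost by DESeq2, with the GC offset and when any library but dsRNA replicate 1 was left out.

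Mock pellets, made with no dsRNA, were set beside these values. Both sets of pellets were compared with the same 3 inputs, so their values against input share those libraries. Class medians against input in mock pellets were 1.45 for mitochondrially encoded mRNAs, 0.80 for the matrix, 0.68 for receptors, -0.78 for both groups of nuclear-encoded respiratory genes and -0.65 for the proteasome, against 1.66, 0.93, 0.77, -0.78, -0.86 and -0.73 with dsRNA. MT-ND2 had 582, 655 and 583 CPM in mock pellets, COL16A1 119, 105 and 137 CPM and YBX1 985, 600 and 711 CPM, in ranges that overlapped those of dsRNA pellets. In the direct test of dsRNA against mock pellets, edgeR called 0 genes higher (0%) and 0 lower (0%), with a lowest adjusted p of 0.28. Of the 16612 genes tested, 374 had an unadjusted edgeR p under 0.05, a share below the 0.05 that would pass if no gene differed. DESeq2 called 0 higher and 64 lower. The pairing of replicates changed this count: with the replicate block edgeR called 25 genes higher (0.15%) and 441 lower (2.65%). EIF2AK2 was among those lower, with 133, 126 and 125 CPM in mock pellets against 99.9, 88.1 and 90.1 CPM with dsRNA (log2 -0.54, adjusted p = 2.7e-08, edgeR with the block). G3BP1 had 287, 287 and 255 CPM in mock pellets against 220, 213 and 218 CPM (-0.42, adjusted p = 5.5e-06, edgeR with the block). For both genes every dsRNA pellet lay below every mock pellet. POMP had 77.4, 66 and 57.6 CPM against 57.9, 47.5 and 49.6 CPM (-0.44, adjusted p = 8.6e-06, edgeR with the block). Mock levels were scaled over all 15 libraries and dsRNA levels over 6. The closeness of 57.6 and 57.9 CPM therefore cannot be read as overlap. Of the coat genes 10 of 46 were lower with dsRNA in the paired fit, the largest share of any class, chosen after the values were seen.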

How the data were processed

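The authors deposited raw read counts for each gene in 15 libraries, without normalisation. Per the labels, reads were trimmed, aligned and counted with Trimmomatic 0.36, STAR 2.5.2b and featureCounts (Subread 1.5.2) on GRCh38 (submitters' processing notes), and the annotation release and strand setting are not given in the sources used here. In the dsRNA and input libraries 99.68% to 99.77% of counts lay in tested genes, so depth limited only genes near the count minimum. Libraries were grouped by their titles and source names, and no map from libraries to separate cultures beyond the replicate numbers was used.

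Counts of the 6 libraries were scaled by TMM and tested by quasi-likelihood F test (edgeR 4.0.16) in R 4.3.3, adjusted by Benjamini-Hochberg over all 16612 genes. The study's methods name DESeq2, and DESeq2 1.42.0 was an alternative, with other scalings and filters, a GC offset (a smooth trend of span 0.3 per library), thinned counts, a replicate block, all groups in 1 fit and each library left out. The fits were tested on simulated data. The spread between replicates, as a biological coefficient of variation, was 0.188. With 3 against 3 libraries an exact permutation test of a single value cannot go below p = 0.1, so none is given.

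Same-numbered dsRNA and input libraries deviated together from their group means, with correlations of 0.683, 0.544 and 0.511 for replicates 1, 2 and 3, so the numbers, which the titles give as biological replicates, were taken to pair them. Differently numbered libraries had correlations of -0.636 to -0.555 where replicate 1 was one of them and of 0.432 and 0.519 between replicates 2 and 3, so the data set replicate 1 apart and did not tell numbers 2 and 3 from each other. Coding features came from the transcript with the longest coding sequence in GENCODE 29 and were found for 13523 genes. The genes and the 53 functional lists were chosen with earlier results of these data known. Genes were named by rule: the 10 largest rises and falls among called genes whose mean level was 3 or more on the log2 CPM scale and whose groups lay apart, the largest rise and fall among called members of each list with that level, and any member of the stress granule, dsRNA sensing, stress response, mitochondrial mRNA and lncRNA lists. COX7A1 and HMGN5 fell outside this rule and were chosen after their values were seen. EIF5B, NCL and HSP90B1 met the rule, but were grouped with HMGN5 in the closing section after their values were seen.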

Additional observations from a re-analysis of the deposited data

How the results depend on the processing

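Of 3507 enriched genes, 929 had an absolute log2 fold change over 1, as had 413 of the 3261 depleted genes. Leaving out 1 library gave 2360 to 3498 enriched and 1960 to 3419 depleted genes, and leaving out replicate 1 of both groups, an alternative chosen after seeing the data, gave 5575 and 5512. With the replicate block and the GC offset together 5070 genes were depleted, where the block alone gave 4839. Against mock, no gene was higher in the unpaired fit, 25 were with the replicate block, 128 with the block and GC offset and 6 without replicate 1. For genes lower than in mock the counts were 0 in the unpaired fit, 64 with DESeq2, 15 with all groups in 1 fit, 23 with no filter, 441 with the block, 444 with block and GC offset and 192 without replicate 1. The counts of the unpaired fit stayed at 0 in either direction when any dsRNA library was left out. The paired fit was not run with a library left out, so how far its calls rest on single libraries was not tested. The correlation of the fold change with coding GC moved from 0.50 to 0.11 with the GC offset, with or without the block, and that with coding length from 0.43 to 0.50. The log2 fold change of MT-ND5, 0.03 and not called, turned to -0.01 with all groups in 1 fit, -0.00 with a filter in either group and -0.02 with no filter, and ran from -0.09 to 0.13 with 1 library left out. That of H2AFX became -0.01 with block and GC offset. Of the genes named, the block alone changed the calls against input of MT-ND6, ATF4 and NEAT1 and of no other. Against mock it called genes that the unpaired fit did not, EIF2AK2, G3BP1 and POMP among them. It also called 1 of the 13 mitochondrially encoded mRNAs higher and 1 of the 7 cytoplasmic noncoding RNAs lower than in mock. The causes were not tested. Of the 52 classes with at least 5 tested genes, 14 had a median above 0, and 11 to 15 under the alternatives. p-values measure only the spread between these libraries, and depth limits genes near the count minimum.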

Other observations

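Some enriched mRNAs were poor in GC, and a group of them, noticed after the values were seen, had stretches of coding sequence dense in GAA codons. The 4 below are shown as the 60 coding bases densest in the overlapping letters GAAGA or AGAAG (in capitals, coding strand only, GENCODE 29 on GRCh38), since they carry the pattern that the GC order leaves out.
HMGN5, a nucleosome-binding protein, chrX:81115078-81115137, minus strand, exon 7: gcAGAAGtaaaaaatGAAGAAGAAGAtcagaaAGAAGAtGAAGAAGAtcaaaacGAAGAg
EIF5B, chr2:99376385-99376444, plus strand, exon 10: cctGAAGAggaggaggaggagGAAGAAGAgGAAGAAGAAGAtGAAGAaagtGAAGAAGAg
NCL, chr2:231463203-231463262, minus strand, exon 2: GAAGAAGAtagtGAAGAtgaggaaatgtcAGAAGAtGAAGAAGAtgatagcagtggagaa
HSP90B1, chr12:103946939-103947367, plus strand, exons 16 and 17: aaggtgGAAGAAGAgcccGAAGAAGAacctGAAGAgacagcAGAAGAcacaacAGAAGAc
Their whole coding sequences held 72.1, 26.8, 26.8 and 25.7 matches per 1000 bases, where the median of 13523 genes was 6.08 and the 95th percentile 15.7. The first 60 coding bases held a match in 20.4% of genes, which is no background for windows chosen as the densest. HMGN5 had 174, 85.7 and 88.4 CPM in inputs and 374, 295 and 343 CPM in dsRNA pellets, a log2 fold change of 1.54, with every pellet above every input. Among genes under 45% coding GC, 3.12% of 544 genes with fewer than 5 matches per 1000 bases were enriched, 4.85% of 1566 with 5 to 10, 9.18% of 686 with 10 to 15, 19.1% of 194 with 15 to 20 and 18.3% of 120 with 20 or more. The depleted shares of the same bins were 38.4%, 36.2%, 33.2%, 37.1% and 44.2%. Among genes with 45% coding GC or more, NCL included, the enriched shares ran the other way, with 31.5%, 25.2%, 17.9%, 15.6% and 19.5% in the same bins. In the densest bin under 45% coding GC the enriched genes had a median coding length of 2206 nt and the depleted ones of 624 nt. In the densest bin at 45% or more these medians were 1652 and 549 nt. Over all genes the partial correlation of match density with the log2 fold change, with coding GC and length held, was -0.0142.

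Gene types outside the functional classes also differed, and their annotation overlaps that of coding genes in part. Over all genes tested 21.1% were enriched and 19.6% depleted. Processed pseudogenes are intron-less copies of mRNAs whose reads may come from the parent gene. Of 310 tested, 21 were enriched (6.77%) and 67 depleted (21.6%), with a median log2 fold change of -0.40. Of 113 unprocessed pseudogenes 35 were enriched (31%) and 3 depleted (2.65%), with a median of 0.46. Of 250 transcribed unprocessed pseudogenes 74 were enriched (29.6%) and 20 depleted (8%), with a median of 0.34. Of 84 sense intronic genes 18 were enriched (21.4%), near the share of all genes, and 4 depleted (4.76%). Median levels of these types ran from 0.59 to 2.52 on the log2 CPM scale, against 4.96 for protein-coding genes.

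By chromosome, medians were highest on some of the GC-rich ones after the mitochondrial genome. Chromosome 22 (median transcript GC 56.4%) had 169 enriched and 54 depleted of 447 genes, with a median of 0.39, and chromosome 16 had 251 and 95 of 763, with a median of 0.26. Chromosome 4 (43.7%) had 68 enriched and 139 depleted of 578 genes, with a median of -0.18. Chromosome 19, the richest in GC (59%), had 314 and 160 of 1151 genes and a median of 0.14.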
